A study of Mus musculus with 22 samples.

Results

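TCRgd+ILTC1 cells, innate-like T cells that carry the γδ T-cell receptor, were compared with ILC1l cells, known from the study as ILC1-like innate lymphocytes. Both were sorted by flow cytometry from pooled mammary tumours of female PyMT mice on the C57BL/6 strain, aged 20 to 24 weeks. PyMT mice carry the polyoma middle T oncogene and develop tumours of the mammary epithelium, and every population of the study came from such mice, so none is free of tumour. The comparison rests on 4 libraries, 2 of TCRgd+ILTC1 and 2 of ILC1l, chosen by their labels from 22 libraries of 11 populations. Titles spelled ILC1I and ILC1l were taken as 1 population. Beyond their names, the surface gates of TCRgd+ILTC1 and ILC1l were not stated in the labels. The 12 libraries fitted together, called the second set here, were grouped by their titles, and the labels name no batch. The other populations of this set were TCRab+ILTC1 (the αβ receptor counterpart), TCRgd+NK1.1- cells, TCRb+CD8a+NK1.1- cells and cNK, conventional natural killer cells.

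T cells recognise antigen through a receptor built from variable, joining and constant segments, of which the γ and δ chains form one type and the α and β chains the other. The receptor chains have no signalling tail of their own and depend on the CD3 chains and on the ζ chain encoded by Cd247. Natural killer cells and innate lymphoid cells lack this receptor and signal instead through activating receptors coupled to small adaptors such as the Fc receptor γ chain (Fcer1g) and DAP12 (Tyrobp), which recruit the kinase Syk or ZAP-70. Both kinds of cell can live as residents of tissue, where they carry integrins such as CD103 (Itgae) and CD49a (Itga1) and kill with granzymes and perforin. The comparison sets a pair of tumour-resident populations side by side that differ in name by the presence of the receptor.

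The 4 libraries held 13291335 and 12766488 counts in TCRgd+ILTC1 and 12690837 and 12708865 counts in ILC1l. Values below are counts per 1000000 (CPM) scaled by TMM, a correction for library composition. Defining myeloid genes were near background, with 9 of them (Lyz2, Csf1r, C1qa and others) summing to 45.3 and 61.9 CPM in TCRgd+ILTC1 and to 32 and 26.8 CPM in ILC1l. Epithelial markers apart from Cdh1 summed to 60.6 and 54.7 CPM in TCRgd+ILTC1 and to 57.7 and 40 CPM in ILC1l. Cdh1 itself was not low, with 1234.8 and 800.5 CPM in TCRgd+ILTC1 and 637.2 and 694.6 CPM in ILC1l. The 13 B-cell markers summed to 720.4 and 949.5 CPM in TCRgd+ILTC1 and to 737.6 and 815.9 CPM in ILC1l. Ighm made up most of this, at 699.3 and 887 CPM in TCRgd+ILTC1 and 707.1 and 768.9 CPM in ILC1l. The source of the Cdh1 and Ighm transcripts was not tested. In the TCRgd+NK1.1- libraries, quoted for some genes below, the same 9 myeloid genes summed to 6215.4 and 14307.3 CPM. Epithelial markers apart from Cdh1 summed there to 4132.5 and 2335.5 CPM. The part of other cells in the values of that population was not tested. The second ILC1l library stood apart from the first by holding more T-cell transcripts. It had 477 CPM of Cd3e against 88.4 CPM in the first, 138 against 24.3 CPM of Trac, 256 against 52.9 CPM of Cd8a and 113 against 12.6 CPM of the γ variable gene Trgv2. For genes of T cells whose ILC1l libraries differed in this way, the log2 fold change is also given below without it. In sorted bulk samples, a smaller number of expressing cells and less RNA per cell cannot be told apart.

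With 2 libraries on each side, no gene passed the main test. The edgeR quasi-likelihood test called 0 of 16828 genes at a Benjamini-Hochberg adjusted p under 0.05 (0%), the smallest adjusted p being 0.159 for Tcrg-V1. At an unadjusted p under 0.05 edgeR gave 936 genes (5.56%), of which 509 were higher (3.02%) and 427 lower (2.54%) in TCRgd+ILTC1. DESeq2, run on the same counts, called 102 of the 13239 genes it adjusted (0.77%), 57 higher (0.431%) and 45 lower (0.34%). Of these 102 genes, 90 also had an unadjusted edgeR p under 0.05. Libraries of the 2 populations did not overlap in 3416 genes that were higher (20.3%) and 4001 that were lower (23.8%) in TCRgd+ILTC1, so a gap between the groups is by itself common. The shares in this paragraph are those to set beside every count of list members below. Every single gene below therefore missed the edgeR threshold after adjustment, and the DESeq2 result is named for the genes on which the account turns.

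**Figure D1:**
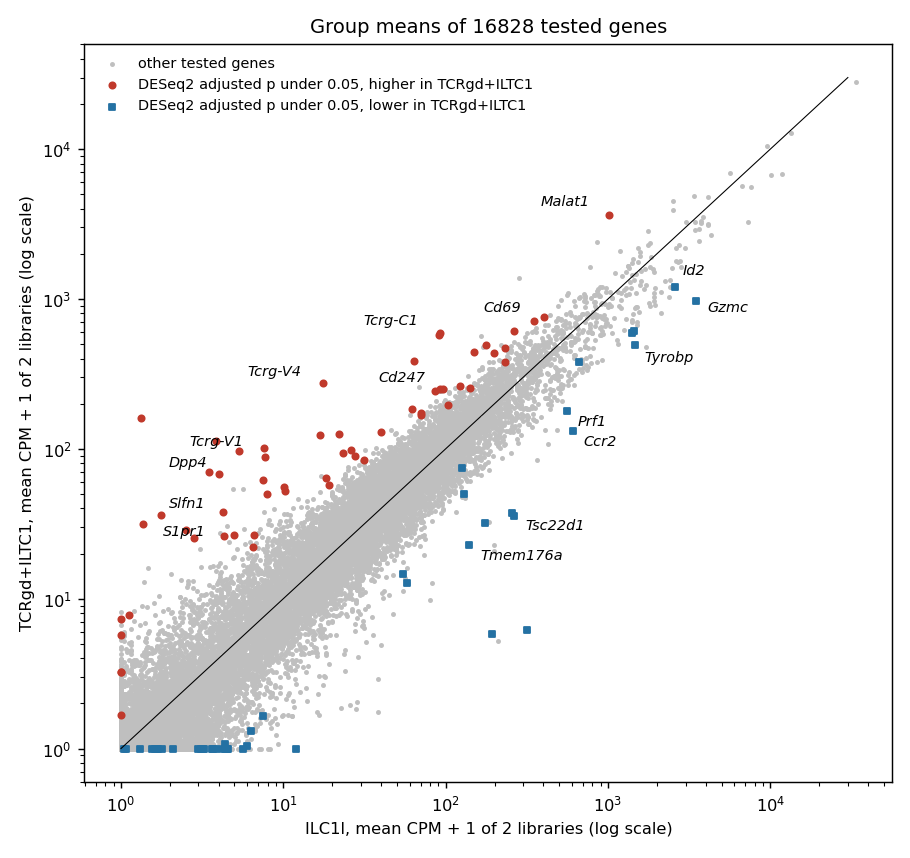
Mean CPM + 1 over 2 libraries of every tested gene in TCRgd+ILTC1 (vertical axis) against ILC1l (horizontal axis), both on log scales, with the line of equality. Circles and squares mark the 57 higher and 45 lower genes called by DESeq2, none of which edgeR called after adjustment, and γ receptor genes, Dpp4 and Slfn1 lie farthest above the line among the labelled genes.

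Of 18 γ and δ receptor genes found by name, all tested, 17 were higher in TCRgd+ILTC1 without overlap and 0 lower, beside the 20.3% of all tested genes that were higher in this way. DESeq2 called 10 of the 18, all higher, and edgeR called 0 after adjustment. TCRgd+ILTC1 cells are named for carrying this receptor, so the choice of cells set this direction in advance. These genes describe the receptor of the cells and are no independent result. In 12 of them both ILC1l libraries were under 10 CPM, so that many fold changes are set against low values. Tcrg-C1, the constant gene used with the Vγ4 and Vγ7 segments, had 479 and 661 CPM in TCRgd+ILTC1, against 64.2 and 116 CPM in ILC1l. Tcrg-V4, the variable segment beside it, had 257 and 292 CPM in TCRgd+ILTC1, against 5.91 and 27.3 CPM in ILC1l. Both ILC1l libraries lay far below both TCRgd+ILTC1 libraries for each gene. The log2 fold change was 2.66 ± 0.38 (SE) for Tcrg-C1, with an edgeR adjusted p of 0.234 and a DESeq2 adjusted p of 3.27e-08, and it became 3.13 without the second ILC1l library and 2.30 without the first. For Tcrg-V4 it was 4.05 ± 0.74 (SE), with an edgeR adjusted p of 0.428 and a DESeq2 adjusted p of 5.59e-06, and it became 5.52 without the second ILC1l library and 3.33 without the first. Tcrg-V7 read 78.7 and 114 CPM in TCRgd+ILTC1 and 5.36 and 3.33 CPM in ILC1l, a log2 fold change of 4.46 ± 0.82 (SE) with a DESeq2 adjusted p of 5.56e-06. Tcrg-V1 read 86.8 and 87.2 CPM in TCRgd+ILTC1 and 6.3 and 7.07 CPM in ILC1l. For these 2 variable segments both ILC1l libraries stayed under 10 CPM, the one rich in T-cell transcripts included. Tcrg-V1 had the smallest p of all genes, with a log2 fold change of 3.70 ± 0.44 (SE) and a DESeq2 adjusted p of 3.2e-13.

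The δ chain was read mainly through its joining and variable segments, because its constant gene was not found in the table by name. Trdj1, a joining segment of the δ locus, had 90.1 and 133 CPM in TCRgd+ILTC1, against 1.81 and 3.91 CPM in ILC1l. Its germline sequence is shown because this segment had the largest log2 fold change of the δ genes named here. It lies at chr14:54123138-54123188 (GRCm38, RefSeq coordinates) and is printed as its transcript reads in GENCODE. Capitals mark a match to TTTGGNNNNGGN, the codons of the conserved joining motif.
Trdj1: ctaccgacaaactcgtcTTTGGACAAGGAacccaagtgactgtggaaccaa
Trdj1 had a log2 fold change of 5.28 ± 1.22 (SE), an edgeR adjusted p of 0.699 and a DESeq2 adjusted p of 0.000214. Trdv5, a δ variable segment, had 54.3 and 84 CPM in TCRgd+ILTC1, against 4.18 and 0.832 CPM in ILC1l, with a DESeq2 adjusted p of 0.000879. The log2 fold change of Trdj1 became 5.92 without the second ILC1l library and 4.84 without the first, and that of Trdv5, 4.78 ± 1.25 (SE) with all libraries, became 4.03 without the second and 6.37 without the first. Trdv4 did not follow, with 24.3 and 43.4 CPM in TCRgd+ILTC1 and 35.5 and 37.7 CPM in ILC1l, so that its ranges overlapped. Trdv4 was also read at 52.1 and 53 CPM in cNK cells, which have no T-cell receptor, and at 0.302 and 0.695 CPM in TCRab+ILTC1. It was therefore read in the innate populations at levels like those of TCRgd+ILTC1 and close to 0 in the αβ population.

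Tcrg-C2 and Trgv2, γ genes of a further cluster, were also higher in TCRgd+ILTC1 without overlap. Tcrg-C2 had 561 and 625 CPM in TCRgd+ILTC1, against 32.5 and 151 CPM in ILC1l, and Trgv2 had 350.2 and 412 CPM in TCRgd+ILTC1, against 12.6 and 113 CPM in ILC1l. As for Tcrg-V4, the second ILC1l library read several times the first. DESeq2 called both genes, with an adjusted p of 0.000693 for Tcrg-C2 and 0.0279 for Trgv2. Leaving out the second ILC1l library moved the log2 fold change of Trgv2 to 4.90, the only call of edgeR in that fit, and leaving out the first moved it to 1.75, from 2.60 with both. For Tcrg-C2 the values were 4.17 and 1.98, from 2.69 with both. These 2 genes were also high in TCRab+ILTC1, at 490.5 and 459 CPM for Tcrg-C2 and 314 and 385 CPM for Trgv2. Tcrg-C4 had the smallest gap of the constant genes, with 432 and 431 CPM in TCRgd+ILTC1 and 167 and 228 CPM in ILC1l. Its log2 fold change was 1.13 ± 0.30 (SE), with an edgeR adjusted p of 0.784. Tcrg-V6, the segment of a γδ subset known in mice for interleukin 17, was low in both populations, at 4.13 and 3.13 CPM in TCRgd+ILTC1 and 1.97 and 0.582 CPM in ILC1l. It was read at 181 and 92.7 CPM in TCRgd+NK1.1- cells. The γ constant genes resemble one another closely, so reads may have been shared between them or lost.

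**Figure D2:**
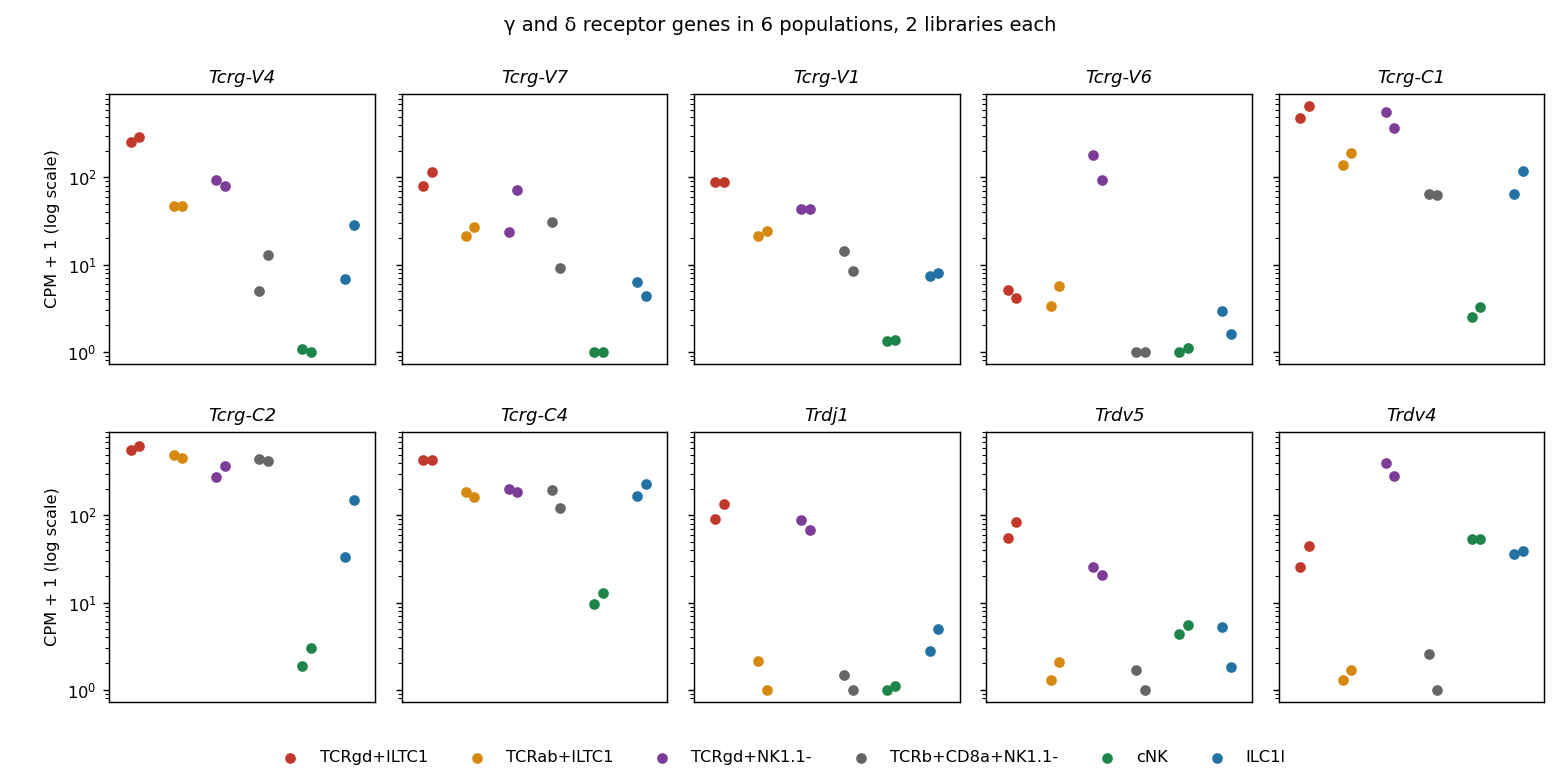
CPM + 1 on a log scale of 10 γ and δ receptor genes in each library of 6 populations, TCRgd+ILTC1 at the left of each panel and ILC1l at the right. Tcrg-V4, Tcrg-V7 and Tcrg-V1 were higher in both TCRgd+ILTC1 libraries than in any other library drawn, Tcrg-C2 was high in all 4 T-cell populations, and Trdv4 was similar in TCRgd+ILTC1, cNK and ILC1l.

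The CD3 chains, which carry the receptor to the surface, were higher in both TCRgd+ILTC1 libraries than in either ILC1l library. The choice of cells named for the receptor set this direction too. Cd3e had 1264 and 1484 CPM in TCRgd+ILTC1, against 88.4 and 477 CPM in ILC1l. Cd3d had 525 and 602 CPM in TCRgd+ILTC1, against 67.9 and 259.6 CPM in ILC1l. Cd3g had 2228 and 2546 CPM in TCRgd+ILTC1, against 390.5 and 1319.5 CPM in ILC1l. The groups did not overlap for any of the 3 genes, but the ILC1l libraries differed from each other several-fold. The log2 fold change of Cd3e was 2.28 ± 0.86 (SE), with an edgeR adjusted p of 0.784 and a DESeq2 adjusted p of 0.163. It was 3.94 without the second ILC1l library and 1.53 without the first. Cd3d read 1.78 with all libraries, 3.03 without the second and 1.12 without the first, and Cd3g read 1.48, 2.59 and 0.86. ILC1l libraries were not free of CD3 transcripts, whereas cNK libraries read Cd3e at 0.623 and 6.13 CPM. Cd247 was steadier, with 217 and 279.8 CPM in TCRgd+ILTC1 and 80.9 and 101 CPM in ILC1l. Its log2 fold change was 1.45 ± 0.27 (SE), with an edgeR adjusted p of 0.428 and a DESeq2 adjusted p of 0.000248. Cd247 is also used by NK receptors, and it was read at 297 and 389.7 CPM in cNK cells.

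Cd3e, Cd3d and Cd3g lie close together on one chromosome and were high and low in the same libraries, so the 250 bases before each start are shown, with those of Fcer1g, which lay the other way. Sequences are from RefSeq (GRCm38.p6), at chr9:45009612-45009861 (minus strand) for Cd3e, chr9:44981536-44981785 (plus strand) for Cd3d, chr9:44980432-44980681 (minus strand) for Cd3g and chr1:171234350-171234599 (minus strand) for Fcer1g. Capitals mark matches on either strand to 4 short motifs of lymphocyte factors, with no overlap between matches here. The RUNX motif searched for was TGTGGT. For ETS factors the letters searched for were AGGAAG. For the GATA family they were AGATAA. An E-box was taken as CAGCTG.
Cd3e: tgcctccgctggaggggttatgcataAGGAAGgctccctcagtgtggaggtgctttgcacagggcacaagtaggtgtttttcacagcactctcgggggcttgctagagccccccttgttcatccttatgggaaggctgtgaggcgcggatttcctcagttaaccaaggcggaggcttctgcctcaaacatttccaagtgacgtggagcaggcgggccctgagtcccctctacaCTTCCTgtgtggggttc
Cd3d: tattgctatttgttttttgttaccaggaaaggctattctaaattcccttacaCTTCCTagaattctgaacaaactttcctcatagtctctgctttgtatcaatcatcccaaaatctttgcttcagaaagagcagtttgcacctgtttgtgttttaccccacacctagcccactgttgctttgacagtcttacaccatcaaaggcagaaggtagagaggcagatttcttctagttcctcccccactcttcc
Cd3g: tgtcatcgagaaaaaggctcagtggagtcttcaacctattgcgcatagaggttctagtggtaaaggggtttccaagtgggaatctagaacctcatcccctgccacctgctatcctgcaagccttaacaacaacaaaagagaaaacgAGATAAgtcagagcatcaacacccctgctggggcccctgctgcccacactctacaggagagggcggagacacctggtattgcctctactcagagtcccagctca
Fcer1g: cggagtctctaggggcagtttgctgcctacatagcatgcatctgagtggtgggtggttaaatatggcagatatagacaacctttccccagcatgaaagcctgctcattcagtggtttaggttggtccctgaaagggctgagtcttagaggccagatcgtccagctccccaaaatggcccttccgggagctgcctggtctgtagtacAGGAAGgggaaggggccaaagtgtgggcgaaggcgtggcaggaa
Over the 250 bases before 27025 gene starts, 29.2% held the ETS letters, 14.2% the RUNX letters, 10.3% the GATA letters and 12.8% the E-box letters. The Cd3e window held 2 ETS matches, the Cd3d and Fcer1g windows 1 ETS match each and the Cd3g window 1 GATA match. A match describes the letters only, and the motif content did not separate Fcer1g from Cd3d.

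Genes that act after the receptor were higher in TCRgd+ILTC1 in part. Of 26 tested T-cell receptor signalling genes, edgeR called 0 after adjustment, 8 had an unadjusted p under 0.05, all higher, and DESeq2 called 4, all higher. Libraries did not overlap for 17 higher and 2 lower members, beside 20.3% higher and 23.8% lower of all tested genes. The median log2 fold change was 0.44, against -0.04 over all tested genes. Cd6, a scavenger-type receptor that tunes T-cell signalling, had 118 and 126 CPM in TCRgd+ILTC1, against 5.75 and 25.9 CPM in ILC1l. Themis, a T-cell signalling adaptor, had 57.3 and 40.9 CPM in TCRgd+ILTC1, against 3.15 and 10.6 CPM in ILC1l. Plcg1, the phospholipase downstream of LAT, had 69.2 and 125 CPM in TCRgd+ILTC1, against 15.1 and 34.9 CPM in ILC1l. In each of these 3 genes the ILC1l library rich in T-cell transcripts was the higher of its pair but stayed below both TCRgd+ILTC1 libraries. Without it the log2 fold changes were 4.38 for Cd6, 3.94 for Themis and 2.66 for Plcg1, against 2.95, 2.83 and 1.96 with all libraries and 2.24, 2.21 and 1.48 without the first ILC1l library. Cd5, an inhibitor of receptor signalling, was low in TCRgd+ILTC1 at 8.65 and 5.01 CPM and rested on 3 counts in all in ILC1l. The kinases that innate cells also use were close, with Lck at 1368 and 1837 CPM in TCRgd+ILTC1 and 1204 and 1470.2 CPM in ILC1l. Zap70 read 358 and 381 CPM in TCRgd+ILTC1 and 339 and 299 CPM in ILC1l.

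Trac and Cd8a overlapped between the groups only through the second ILC1l library. Trac, the α constant gene, had 70.4 and 40.5 CPM in TCRgd+ILTC1 and 24.3 and 138 CPM in ILC1l. Its log2 fold change was -0.55 with all libraries, 1.17 without the second ILC1l library and -1.31 without the first. TCRab+ILTC1 libraries read Trac at 791 and 804 CPM. Cd8a had 198 and 341 CPM in TCRgd+ILTC1 and 52.9 and 256 CPM in ILC1l, while Cd4 stayed under 10 CPM in all 4 libraries. The log2 fold change of Cd8a was 0.80, 2.33 without the second ILC1l library and 0.08 without the first. Neither gene passed edgeR (adjusted p = 0.901 for Trac and 0.868 for Cd8a). Both TCRgd+ILTC1 libraries thus lay above the first ILC1l library for Trac and Cd8a, and the second ILC1l library lay above both of them for Trac and between them for Cd8a. Cd8b1 overlapped between the groups, with a log2 fold change of -2.25. Summed, Trac, Trbc1, Trbc2, Cd4, Cd8a and Cd8b1 came to 725.5 and 938 CPM in TCRgd+ILTC1 and 502 and 1102 CPM in ILC1l. The same sum was 323.9 and 371.9 CPM in cNK and 1082.3 and 893.5 CPM in TCRgd+NK1.1- cells, so it is not a measure of αβ T cells alone. In TCRab+ILTC1 it was 3884.2 and 4318.3 CPM. The part that αβ T cells among the sorted cells may have in these values was not tested.

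**Figure D3:**
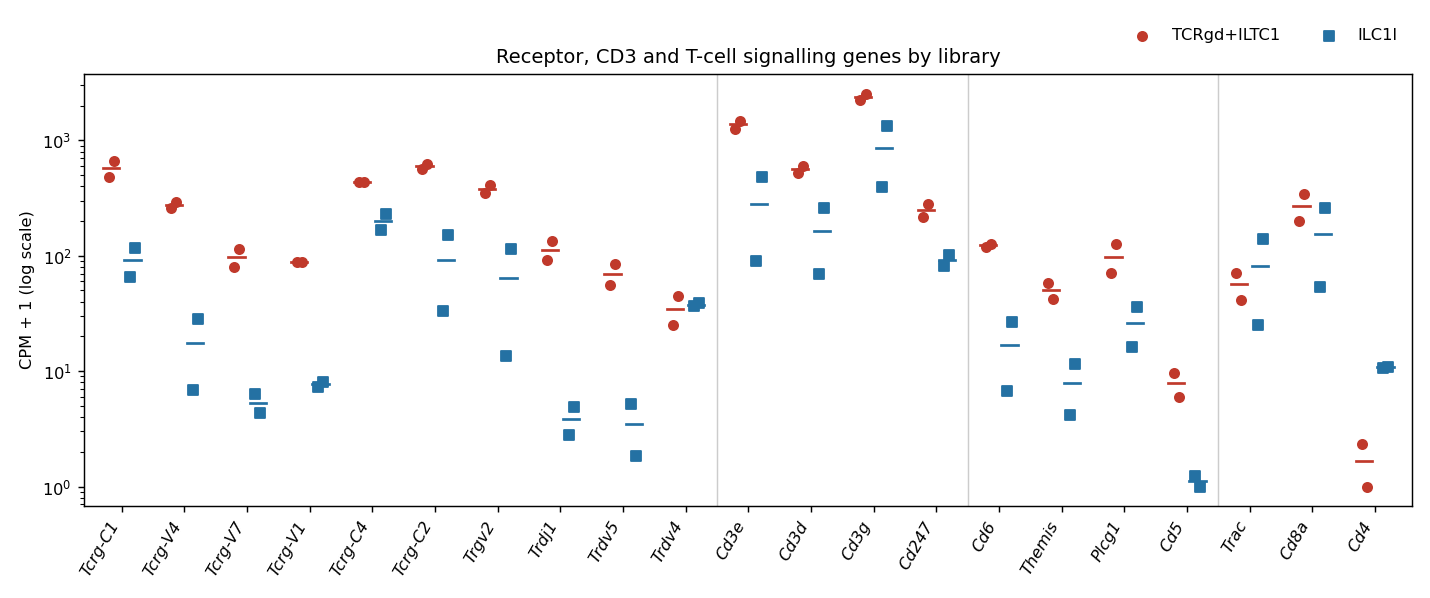
CPM + 1 on a log scale of receptor, CD3 and signalling genes, Trac, Cd8a and Cd4 in the 2 TCRgd+ILTC1 libraries (circles, left of each pair) and the 2 ILC1l libraries (squares), with a bar at each mean. TCRgd+ILTC1 libraries lie above both ILC1l libraries for the γ genes, Trdj1, Trdv5 and the CD3 chains, and the groups overlap for Trdv4, Trac and Cd8a.

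Of 13 tested members of the list of innate receptor adaptors and Syk signalling, DESeq2 called 1, Tyrobp, which was lower in TCRgd+ILTC1, and edgeR called 0. Tyrobp, the DAP12 adaptor, had 489.8 and 486 CPM in TCRgd+ILTC1, against 1224 and 1720.4 CPM in ILC1l. Fcer1g had 1262 and 1128 CPM in TCRgd+ILTC1, against 1999 and 2785 CPM in ILC1l. Syk, the kinase these adaptors recruit, had 15.7 and 9.63 CPM in TCRgd+ILTC1, against 53.7 and 56.2 CPM in ILC1l. None of the 3 genes overlapped between the groups. Tyrobp had a log2 fold change of -1.59 ± 0.36 (SE), an edgeR adjusted p of 0.652 and a DESeq2 adjusted p of 0.00395. Fcer1g passed neither test, with adjusted p of 0.784 in edgeR and 0.343 in DESeq2, and Syk passed neither, with 0.784 and 0.258. Fcer1g was still an abundant transcript of TCRgd+ILTC1, against 279.8 and 371 CPM in TCRgd+NK1.1- cells. The TCRgd+NK1.1- libraries also held many myeloid transcripts, and the part of other cells in their Fcer1g values was not tested. Over the list, 3 members had an unadjusted edgeR p under 0.05, all lower. Libraries did not overlap for 7 lower members and 1 higher member, Clnk, with a log2 fold change of 0.40, and the median log2 fold change was -0.25. Among all tested genes, 23.8% were lower and 20.3% higher in this way.

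Among NK receptors, Ncr1, which encodes the activating receptor NKp46, had 534 and 418 CPM in TCRgd+ILTC1, against 1780.3 and 1648 CPM in ILC1l. Its log2 fold change was -1.85 ± 0.99 (SE), with an edgeR adjusted p of 0.784 and a DESeq2 adjusted p of 0.848. Klrb1b, an inhibitory receptor of the NKR-P1 family, had 75.3 and 91.5 CPM in TCRgd+ILTC1, against 379 and 345 CPM in ILC1l. Klrb1c, which encodes NK1.1 itself, differed little, with 1177 and 1472 CPM in TCRgd+ILTC1 and 1728 and 1482 CPM in ILC1l. Klra8, an activating Ly49 receptor in this strain, had 40.9 and 2.5 CPM in TCRgd+ILTC1, against 181 and 212 CPM in ILC1l. The TCRgd+ILTC1 libraries differed from each other more than the ILC1l libraries did, yet both were lower. Neither gene passed DESeq2, with an adjusted p of 0.125 for Klrb1b and 0.509 for Klra8. Klra1 lay the other way, with 333 and 334 CPM in TCRgd+ILTC1 and 133 and 184 CPM in ILC1l. Ly49 and NKR-P1 genes are near-identical families, so single values are uncertain. Of 28 tested NK receptors, 4 had an unadjusted edgeR p under 0.05, all lower, DESeq2 called 0 and edgeR called 0 after adjustment. Libraries did not overlap for 15 lower and 6 higher members, and the median log2 fold change was -0.47. The share of higher members was near the 20.3% of all tested genes, of which 23.8% were lower without overlap.

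Genes of mature NK cells were mostly low in TCRgd+ILTC1, with a list median log2 fold change of -0.82 over 18 members. Libraries did not overlap for 12 lower members and 1 higher member, beside 23.8% lower and 20.3% higher of all tested genes. Of the members, 5 had an unadjusted edgeR p under 0.05, all lower, and DESeq2 called 1, lower. Itgam, the CD11b integrin chain of mature NK and myeloid cells, had 17.6 and 26.9 CPM in TCRgd+ILTC1, against 58.4 and 66.7 CPM in ILC1l. Klrg1 had 26.6 and 21.1 CPM in TCRgd+ILTC1, against 68.1 and 78.4 CPM in ILC1l. Eomes, the T-box factor of NK cells, had 13.9 and 0 CPM in TCRgd+ILTC1, against 29.8 and 27.3 CPM in ILC1l. None of the 3 passed DESeq2, with an adjusted p of 0.307 for Itgam, 0.876 for Klrg1 and 0.908 for Eomes. Both populations were far below cNK cells for these 3 genes, which read Itgam at 959 and 889 CPM, Klrg1 at 429.8 and 621 CPM and Eomes at 146 and 188 CPM.

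Cytotoxic genes were split. Prf1, the pore-forming perforin, had 192 and 161 CPM in TCRgd+ILTC1, against 592 and 518 CPM in ILC1l. Gzmc had 1228 and 708 CPM in TCRgd+ILTC1, against 3448 and 3534 CPM in ILC1l. Both genes were lower without overlap, with a log2 fold change of -1.65 ± 0.40 (SE) for Prf1 and -1.85 ± 0.49 (SE) for Gzmc. The edgeR adjusted p was 0.784 for each, and the DESeq2 adjusted p was 0.0059 for Prf1 and 0.016 for Gzmc. Gzmb, the main granzyme of both populations, did not separate them, with 9139.9 and 11839.6 CPM in TCRgd+ILTC1 and 7665 and 11456 CPM in ILC1l. Gzma had 2832 and 2521 CPM in TCRgd+ILTC1 and 2601 and 6062 CPM in ILC1l, where the second ILC1l library was apart from the other 3. Its log2 fold change was -0.69 with that library and 0.02 without it. Gzmk lay the other way at a low level, with 24.2 and 26.6 CPM in TCRgd+ILTC1 and 2.36 and 8.9 CPM in ILC1l, and DESeq2 called it with an adjusted p of 0.00749. Its log2 fold change was 2.17, and 3.40 without the second ILC1l library and 1.52 without the first. Tnfsf10, the death ligand TRAIL, was alike at 476 and 492 CPM in TCRgd+ILTC1 and 440.5 and 414 CPM in ILC1l. The whole list of 23 cytotoxic genes had 13 lower and 5 higher members without overlap and a median log2 fold change of -0.43. Its share of higher members was near the 20.3% of all tested genes, of which 23.8% were lower without overlap. Gzmc and its neighbours Gzmd to Gzmg resemble one another, so reads may have been shared.

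**Figure D4:**
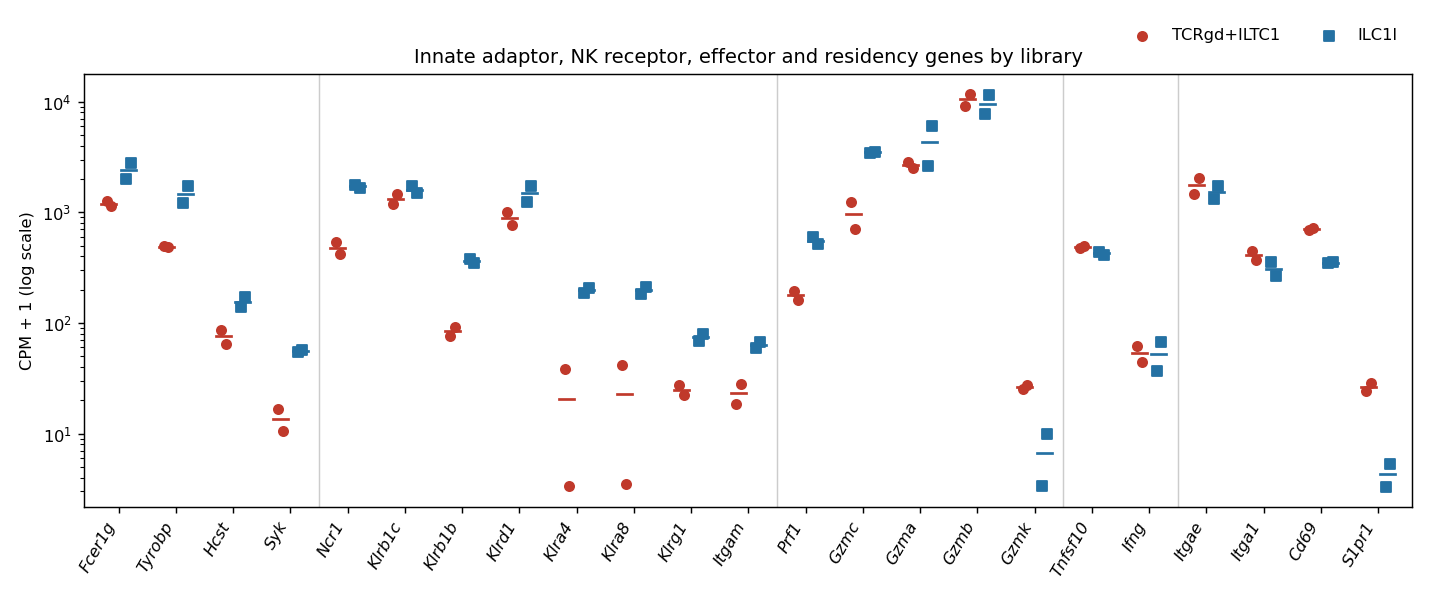
CPM + 1 on a log scale of adaptor, NK receptor, effector and residency genes in the 2 TCRgd+ILTC1 libraries (circles, left of each pair) and the 2 ILC1l libraries (squares), with a bar at each mean. Tyrobp, Ncr1, Prf1 and Gzmc are lower in TCRgd+ILTC1 without overlap, Gzmb and Klrb1c are close, and Cd69, Gzmk and S1pr1 are higher.

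Residency genes were shared, with some higher in TCRgd+ILTC1. Itgae, the CD103 chain, had 1449.5 and 2057 CPM in TCRgd+ILTC1 and 1318 and 1721 CPM in ILC1l. Itga1, the CD49a chain, had 448 and 368 CPM in TCRgd+ILTC1 and 353 and 263 CPM in ILC1l. The cNK libraries read Itgae at 2.26 and 9.24 CPM and Itga1 at 3.89 and 7.82 CPM, so both populations compared held the residency integrins. Cd69, which keeps lymphocytes in tissue by removing the egress receptor S1PR1 from the surface, had 693 and 722 CPM in TCRgd+ILTC1, against 346 and 353 CPM in ILC1l. Replicates were close, and the log2 fold change was 1.02 ± 0.20 (SE), with an edgeR adjusted p of 0.445 and a DESeq2 adjusted p of 6.02e-06. S1pr1 itself was low but higher in TCRgd+ILTC1, at 23 and 27.5 CPM in TCRgd+ILTC1 and 2.28 and 4.33 CPM in ILC1l, where cNK cells had 70.3 and 64.7 CPM. Cxcr6, a chemokine receptor of resident lymphocytes, had 1846 and 2309 CPM in TCRgd+ILTC1 and 968 and 1405 CPM in ILC1l. Xcl1, a chemokine that attracts cross-presenting dendritic cells, lay the other way with 693 and 482 CPM in TCRgd+ILTC1 and 1157 and 1633 CPM in ILC1l. DESeq2 called S1pr1 (adjusted p = 0.000126) and Xcl1 (adjusted p = 0.048) but not Cxcr6 (adjusted p = 0.432). Of 22 tested residency genes, 13 were higher and 2 lower without overlap, beside 20.3% higher and 23.8% lower of all tested genes. At an unadjusted edgeR p under 0.05 there were 5 higher and 1 lower, and DESeq2 called 2 higher and 1 lower.

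Tbx21, Ifng and Zfp683 were close between the groups, unlike Eomes above. Tbx21, which encodes T-bet, had 75.6 and 54.5 CPM in TCRgd+ILTC1 and 105 and 54.7 CPM in ILC1l, and Ifng had 60.7 and 43.2 CPM in TCRgd+ILTC1 and 35.9 and 66.2 CPM in ILC1l. Zfp683, which encodes the residency factor Hobit, had 26.5 and 20.7 CPM in TCRgd+ILTC1 and 20.2 and 16.7 CPM in ILC1l. Among 17 genes of the type 1 cytokine programme, 0 had an unadjusted edgeR p under 0.05 and DESeq2 called 0, and the median log2 fold change was -0.24. Libraries did not overlap for 4 lower and 3 higher members, shares near those of all tested genes (23.8% and 20.3%). Id2, the factor that innate lymphoid cells depend on, had 1330.5 and 1055 CPM in TCRgd+ILTC1, against 2559 and 2624 CPM in ILC1l. Bcl11b, a factor of T-cell commitment, had 24.3 and 17.7 CPM in TCRgd+ILTC1, against 5.75 and 5.32 CPM in ILC1l. Ikzf2, which encodes Helios, had 192 and 322 CPM in TCRgd+ILTC1, against 53.8 and 80.7 CPM in ILC1l. These 3 genes did not overlap between groups, and DESeq2 called Id2 (adjusted p = 0.0155) and Bcl11b (adjusted p = 0.00938) but not Ikzf2 (adjusted p = 0.129). Kit, the stem cell factor receptor, had 33.5 and 40.5 CPM in TCRgd+ILTC1 and 129 and 100.3 CPM in ILC1l, and DESeq2 did not call it (adjusted p = 0.315). Id2, Bcl11b, Ikzf2 and Kit stand on a list of 22 genes of helper innate lymphoid cells and innate-like development. Of these, 4 were higher and 5 lower without overlap, shares near those of all tested genes. The median log2 fold change of that list was -0.13.

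Interleukin 17 production is another fate of mouse γδ T cells, and its gene Il17a was not detected at this depth in either population. Il17a had 0 counts in all 4 libraries, and a count of 0 allows a level of up to 0.226 and 0.235 CPM in TCRgd+ILTC1 and 0.236 CPM in each ILC1l library. TCRgd+NK1.1- libraries, fitted together with these, read Il17a at 124 and 40.4 CPM.

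DESeq2 called further surface and signalling genes, most of them on none of the lists, which are named here after their values were seen. Dpp4, the CD26 peptidase and costimulator of T cells, had 75.1 and 58.7 CPM in TCRgd+ILTC1, against 1.97 and 4.08 CPM in ILC1l, a log2 fold change of 4.47 ± 0.62 (SE) that became 5.06 without the second ILC1l library and 4.04 without the first. Slfn1, a Schlafen gene of T cells, had 39.8 and 34.4 CPM in TCRgd+ILTC1, against 3.62 and 2.83 CPM in ILC1l. Sh3kbp1, an adaptor of receptor uptake, had 92.5 and 84.2 CPM in TCRgd+ILTC1, against 24.3 and 29.2 CPM in ILC1l. For all 3 genes both TCRgd+ILTC1 libraries lay above both ILC1l libraries, although the second ILC1l library read Dpp4 at a level well above the first. Their DESeq2 adjusted p lay between 1.19e-10 and 2.53e-07 while their edgeR adjusted p were 0.234 for Dpp4, 0.385 for Slfn1 and 0.284 for Sh3kbp1. In the opposite direction, Tmem176a, a membrane protein gene, had 28.5 and 15 CPM in TCRgd+ILTC1, against 157 and 121 CPM in ILC1l, with a DESeq2 adjusted p of 0.000353. Its neighbour Tmem176b had 53 and 19.6 CPM in TCRgd+ILTC1, against 275 and 237 CPM in ILC1l. Tsc22d1, a transcriptional regulator, had 48 and 21.5 CPM in TCRgd+ILTC1, against 298 and 228 CPM in ILC1l. These genes were lower in both TCRgd+ILTC1 libraries, the second being the lowest each time. Ccr2, a chemokine receptor of monocytes and some lymphocytes, had 222 and 36.9 CPM in TCRgd+ILTC1, against 770.3 and 444 CPM in ILC1l. The log2 fold change of Ccr2, -2.23 with all libraries, was -4.07 without the first TCRgd+ILTC1 library and -1.44 without the second. Without the first, Tmem176b moved to -3.74 from -2.82 and Tsc22d1 to -3.64 from -2.92. Pecam1 had 36.3 and 25.7 CPM in TCRgd+ILTC1, against 225 and 120.1 CPM in ILC1l. Ccr2 stands on the lists of chemokine receptors and of 25 myeloid markers and Pecam1 on that of 15 stromal and endothelial markers, whose sums were 812 and 647 CPM in TCRgd+ILTC1, against 1689 and 1365 CPM in ILC1l, for the myeloid list and 40.7 and 44.3 CPM in TCRgd+ILTC1, against 233 and 121 CPM in ILC1l, for the stromal list. Itgax, Ccr2 and Cd74, which lymphocytes also express, made up most of the myeloid sum, and 3 and 6 of its 25 genes were at 0 in TCRgd+ILTC1 and 5 and 6 in ILC1l. Vwf, an endothelial gene, was at 0 CPM in both TCRgd+ILTC1 libraries and at 4.73 and 0 CPM in ILC1l. Sparc, of the same list, lay the other way, with 1.5 and 7.91 CPM in TCRgd+ILTC1 and 0.0788 and 0 CPM in ILC1l. The 13 tested members of the stromal list had a median log2 fold change of 1.08. Libraries did not overlap for 1 higher and 1 lower member, beside 20.3% higher and 23.8% lower of all tested genes. The part of other cells in these values was not tested.

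Of 18 tested genes on the list of inhibitory receptors, 8 were higher and 4 lower without overlap. At an unadjusted edgeR p under 0.05 there were 4, all higher. Besides receptors the list holds the enzymes Nt5e and Entpd1, the factor Tox and the ligand Pdcd1lg2. Lower without overlap were Lag3, Tigit, Lair1 and Klrg1. For this and the other lists of this paragraph, 20.3% of all tested genes were higher and 23.8% lower without overlap. The share of lower members of the inhibitory receptor list was near that of all tested genes. Pdcd1, which encodes PD-1, had 93.2 and 93.5 CPM in TCRgd+ILTC1, against 13.9 and 55.4 CPM in ILC1l. Nt5e, the adenosine-producing CD73, had 484 and 469 CPM in TCRgd+ILTC1, against 186 and 153 CPM in ILC1l. Neither passed edgeR (adjusted p = 0.784 each) or DESeq2 (adjusted p = 0.217 and 0.181), and both lay above ILC1l without overlap. The log2 fold change of Pdcd1 was 1.43, and 2.73 without the second ILC1l library and 0.76 without the first. Of 26 cell cycle genes, 17 were higher and 2 lower without overlap, 5 had an unadjusted edgeR p under 0.05, all higher, and neither edgeR nor DESeq2 called any after adjustment. Their median log2 fold change was 0.49. Ccna2, a cyclin of S and G2 phase, had 51 and 46.3 CPM in TCRgd+ILTC1 and 23 and 14.8 CPM in ILC1l. Top2a, the topoisomerase of dividing cells, had 430.1 and 336 CPM in TCRgd+ILTC1 and 188 and 251 CPM in ILC1l. DESeq2 gave an adjusted p of 0.125 for Ccna2 and 0.454 for Top2a. The 24 interferon response genes had a median of 0.23, with 10 higher and 5 lower members without overlap, and the 24 immediate early genes a median of 0.26, with 7 higher and 3 lower. The share of lower interferon genes was also near that of all tested genes. Of the immediate early genes, Nr4a2, a nuclear receptor induced by receptor stimulation, was called by DESeq2 (adjusted p = 0.00235), with 93.7 and 71.5 CPM in TCRgd+ILTC1 and 36.2 and 24.7 CPM in ILC1l. Other members did not follow it. The log2 fold change was -0.06 for Nr4a1, 0.06 for Egr1 and -2.01 for Nr4a3, which was lower without overlap.

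**Figure D5:**
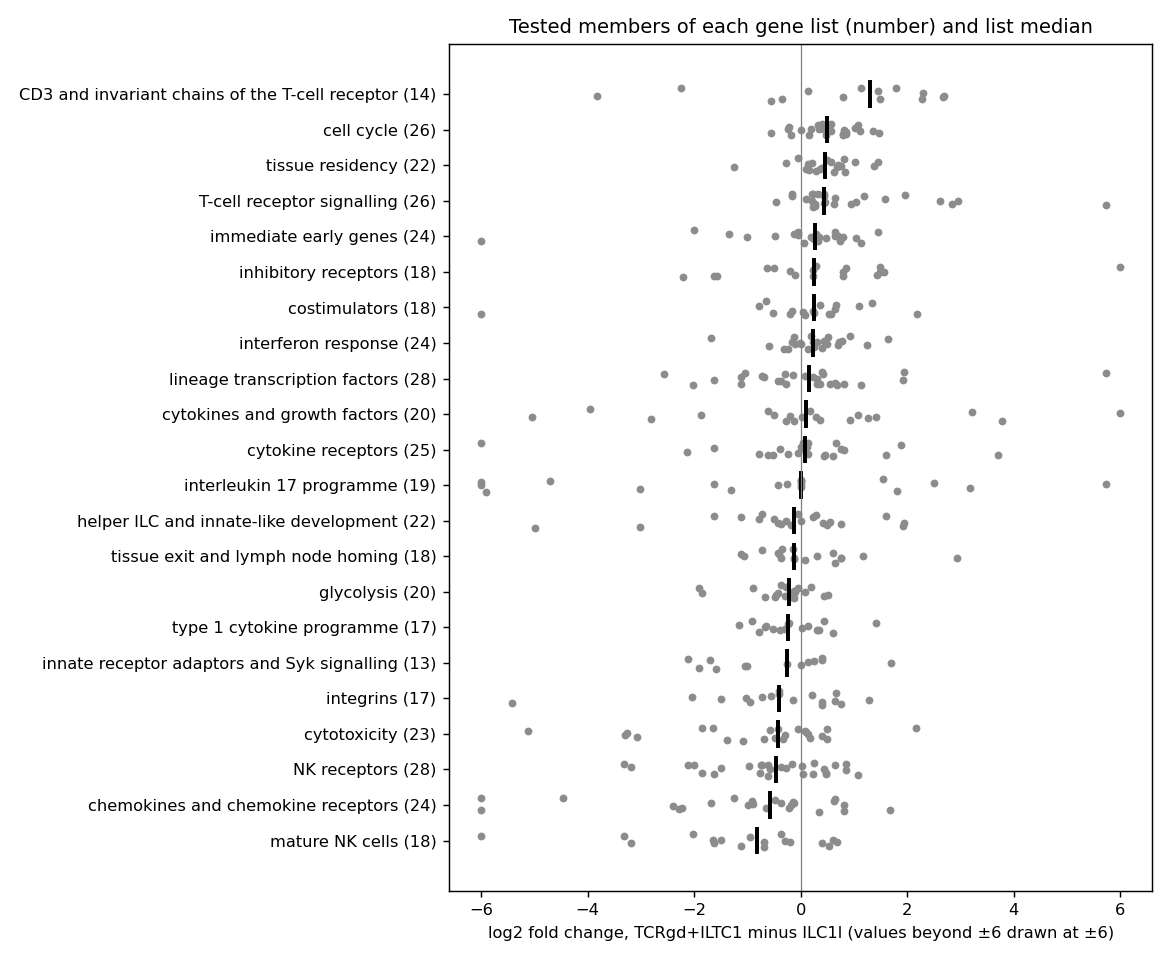
Log2 fold change of TCRgd+ILTC1 minus ILC1l for each tested member (points) of 22 gene lists, with the list median as a bar and the number of tested members in brackets. CD3 and invariant receptor chains had the highest median (1.29) and genes of mature NK cells the lowest (-0.82), beside -0.04 over all tested genes.

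Malat1 and Luc7l3 were among the genes that DESeq2 called higher in TCRgd+ILTC1. Malat1, a long nuclear RNA, had 3141 and 4158 CPM in TCRgd+ILTC1, against 973 and 1061 CPM in ILC1l, with a DESeq2 adjusted p of 5.59e-06. Luc7l3, a splicing factor gene, had 212 and 289.8 CPM in TCRgd+ILTC1, against 104 and 87.7 CPM in ILC1l, with a DESeq2 adjusted p of 0.00049. TCRab+ILTC1 libraries read Malat1 at 1245 and 1096 CPM, near ILC1l, and cNK libraries at 6003 and 5292 CPM. The 79 ribosomal protein genes with a mean of at least 10 CPM summed to 40017 and 32874 CPM in TCRgd+ILTC1, against 61054 and 69775 CPM in ILC1l. Their median log2 fold change was -0.97, and 77 of them were lower without overlap, but 11 had an unadjusted edgeR p under 0.05 and edgeR called 0. The same sum was 55862 and 30979 CPM in TCRab+ILTC1, so libraries of 1 population differed about as much as the groups compared. Across the 8337 genes of at least 10 CPM with a known transcript length, the median log2 fold change was -0.21 over the 1668 shortest and 0.27 over the 1668 longest. Many ribosomal and adaptor transcripts are short, and the part of transcript length in the differences above was not tested. These genes were looked at after the data had been seen.

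Another set of 10 libraries from the same study, grouped by their titles, gave libraries that this comparison did not use. It held NK1.1+ T cells with the αβ receptor, with and without CD8α, 2 libraries each, and a TCR-NK1.1+ population, also with 2. Of the 33 DESeq2-called genes higher in TCRgd+ILTC1, leaving out receptor segments, predicted genes and genes under 20 CPM in the higher group or with overlap, 23 were higher in all 4 NK1.1+ T-cell libraries than in both TCR-NK1.1+ libraries, and 0 were lower in all. Over all tested genes, 9.27% were higher in this way. Of the 15 called lower, 11 were lower in all 4 T-cell libraries and 0 higher, where 10.2% of all tested genes were lower. Both shares are over all tested genes with no CPM minimum, so they are no matched background for genes chosen at 20 CPM or more. Slfn1 had 55.8, 40.9, 54.8 and 82.2 CPM in the T-cell libraries, against 6.96 and 10.7 CPM in the TCR-NK1.1+ libraries. Tyrobp had 768, 619, 466 and 396 CPM in the T-cell libraries, against 1947 and 936 CPM in the TCR-NK1.1+ libraries. S1pr1 did not follow, with 7.56, 2.96, 43.6 and 61.6 CPM in the T-cell libraries and 7.94 and 12.2 CPM in the TCR-NK1.1+ libraries. Both comparisons set cells named for a T-cell receptor beside cells not named for one. In both, the choice of cells set the direction of T-cell genes such as Cd6 and Bcl11b, so the counts that include them are no independent result. The T-cell populations of this set have another receptor, so these values describe the direction in other NK1.1+ T cells and are no repeat of the comparison.

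Set against TCRab+ILTC1 in place of ILC1l, with the same TCRgd+ILTC1 libraries on one side, edgeR again called 0 of 16828 genes after adjustment (0%). An unadjusted edgeR p under 0.05 was reached by 570 of the 16828, fewer than the 936 against ILC1l. DESeq2 called 40 higher and 23 lower, beside 57 and 45 against ILC1l. Tyrobp had 469 and 516 CPM, Prf1 142 and 154 CPM and Cd69 638 and 619 CPM in TCRab+ILTC1, each beside the TCRgd+ILTC1 values given above rather than those of ILC1l. For these genes the log2 fold changes of TCRgd+ILTC1 minus TCRab+ILTC1 were -0.01, 0.26 and 0.17, with an edgeR adjusted p of 1 for each. Trdj1 had 1.11 and 0 CPM in TCRab+ILTC1. Ncr1 had 174 and 101 CPM in TCRab+ILTC1, below both TCRgd+ILTC1 libraries.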

How the data were processed

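Lymphocytes were sorted from pooled tumours and cDNA was amplified with a SMARTer kit, per the labels' protocols. The authors deposited 1 table of whole-number counts per gene for 22 libraries. BWA 0.7.5a, Picard and HTSeq and the builds mm9 and NCBIM37 are named per the submitters' processing notes. The sources used here do not say whether reads were counted by strand. Nothing says that replicate libraries came from separate animals, so p-values measure a spread between libraries that may be technical. That spread was estimated over the replicates of all 6 populations fitted together, and not over the 4 compared libraries alone. Of 37620 entries, 32897 were matched to gene symbols of GENCODE vM21, which gave names and no coordinates.

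Counts of the 12 libraries of the second set were fitted in R 4.3.3 with edgeR 4.0.16 (TMM, filterByExpr, quasi-likelihood F test, 1 mean per population), and fold changes are TCRgd+ILTC1 over ILC1l. DESeq2 1.42.0 and limma 3.58.1 served as alternatives, and Python 3.11.15 with pandas 2.3.3 and matplotlib 3.10.9 for tables and figures. Counts of 3 give 0.226 to 0.236 CPM here, which covers counting error only. Replicates differed by more than counting noise (chi-square per degree of freedom 42.6 in TCRgd+ILTC1 and 38.4 in ILC1l). In the other populations sharing the fit it ran from 29.1 in cNK to 138 in TCRab+ILTC1 and 160 in TCRgd+NK1.1-. Counts of 16828 genes were also simulated, with means and dispersions taken over all 12 libraries. Every population had the same means, apart from 50 genes changed in TCRgd+ILTC1 at each of 4 sizes. In these counts edgeR found 0% of the genes shifted by 1 on the log2 scale, 28% by 2, 64% by 4 and 90% by 6. Of its 94 calls, 3 were false. Changed genes left out the lowest means and the populations did not otherwise differ, so these shares need not hold for the real comparison.

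Named genes were 40 key genes, γ and δ receptor genes reaching 20 CPM in 1 of the 4 libraries, and called genes. As edgeR called none, genes called by DESeq2 and other members of 27 gene lists were named after their values were seen. Not every gene of the rule is printed, some results are not reported here, and Trdc was not found by name. Members and lists were chosen with earlier results of these data known. Alternatives were other scaling, filters, sets of libraries, a replicate block, receptor genes left out and each library left out.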

Additional observations from a re-analysis of the deposited data

How the results depend on the processing

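The edgeR count of 0 genes for TCRgd+ILTC1 against ILC1l became 102 with DESeq2 (57 higher, 45 lower), 197 with no filter on low counts (90 higher, 107 lower), 4 with all 22 libraries in the fit (Dpp4, Slfn1, Tcrg-V1 and Tcrg-C1, all higher) and 1 with only the 2 populations compared. It stayed at 0 with RLE scaling, the stricter filter, without the TCRgd+NK1.1- libraries, with receptor and immunoglobulin genes left out, and with edgeR's legacy quasi-likelihood and limma voom, both added after seeing the data. Leaving out each library in turn gave 0 to 1 genes. Where 1 library is left, it is assumed to vary like those of the other populations. Against TCRab+ILTC1 the count of 0 became 63 with DESeq2, 154 with no filter on low counts, and 0 to 297 when 1 library was left out, 297 being without the first TCRab+ILTC1 library. The cause of these shifts was not tested.

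Replicate numbers did not pair the libraries: deviations of libraries with the same number correlated at 0.068 between TCRgd+ILTC1 and ILC1l, and at -0.041 to 0.123 over 15 pairs of populations. The fit with a replicate block gave 0 genes in both comparisons.

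Of 89 named genes followed under 15 settings, 76 kept the sign of their difference in each setting that gave them a value and 13 did not, with 75 of the 89 having a value when receptor and immunoglobulin genes were left out. Cd5 and Il17a, with 3 counts or fewer in a population, were left out. Ifng, at 0.03, read -0.01 with the stricter filter and without the TCRgd+NK1.1- libraries. With each library left out, log2 fold changes ran from -0.37 to 0.83 for Cd28, from -1.17 to 0.02 for Gzma, from -0.12 to 0.43 for Gzmb, from -0.34 to 0.51 for Ifng, from -0.35 to 0.61 for Il2ra, from -0.58 to 0.01 for Il2rb, from -0.02 to 1.23 for Il7r and from -0.06 to 0.40 for Itgae. They ran from -0.85 to 1.04 for Prdm1, from -0.71 to 0.26 for Tbx21, from -1.31 to 1.17 for Trac, from -0.58 to 0.21 for Trdv4 and from -1.22 to 0.56 for Zbtb16.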
